A study of Mus musculus with 3 samples.

Results

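Scavenger receptors are cell surface proteins that bind modified lipoproteins, matrix fragments, sugars, immune complexes or dying cells and carry them into the cell. In bone marrow and liver they are known from 2 kinds of cell: the fenestrated endothelium of sinusoids, whose stabilins and mannose receptor clear hyaluronan, collagen peptides and other large molecules from blood by clathrin-mediated uptake, and resident macrophages, which use class A receptors and the haemoglobin receptor to take up particles and debris. The gene set described here holds 10 of them, whose rows were found by gene symbol: Stab1 and Stab2 (stabilins), Mrc1 (mannose receptor), Cd36 and Scarb1 (class B receptors for fatty acids, lipoproteins and high-density lipoprotein), Lyve1 (a hyaluronan receptor), Msr1 and Marco (class A receptors), Cd163 (the haemoglobin-haptoglobin receptor) and Fcgr2b (the inhibitory Fc receptor for immune complexes). All 10 were found among the 55422 genes of the deposited tables.

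Droplet single-cell RNA-seq was carried out on 3 libraries from untreated mice aged 3 weeks, all labelled C57BL/6. Metaphyseal replicates 1 and 2 held long bone metaphysis of wild-type C57BL/6J males, from which haematopoietic cells were depleted with lineage, CD45 and CD117 beads, and the Pdgfra-GFP library held cells sorted for nuclear GFP from heterozygous Pdgfra-H2B-GFP knock-in mice, in which the Pdgfra locus drives the reporter. For the Pdgfra-GFP library the paper names the metaphysis-epiphysis region of femur and tibia in its results and the metaphysis in its methods. Genotype, sort, library and possibly the dissected region therefore cannot be told apart for the third library. The labels do not say whether the replicates came from separate animals. The p-values come from a fit over 40 sums of populations with a library term and 22 residual degrees of freedom. They measure the spread left between sums of these 3 libraries once the library term is taken out, and not a spread between animals.

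The 3 libraries held between 22082735 and 91747759 unique molecular identifiers (UMIs), and 2382, 2004 and 11242 cells passed the filters, with a median of 5330 to 6426 UMIs per cell. Cells were assigned to populations by marker genes, none of which is a scavenger receptor of the set: 444, 356 and 79 cells were gated as sinusoidal endothelial cells (EC), 439, 343 and 90 as metaphyseal EC and 76, 58 and 83 as arterial EC in metaphyseal replicate 1, replicate 2 and the Pdgfra-GFP library. Macrophages numbered 0, 3 and 74. EC markers that the gates did not use (Kdr, Tek, Erg, Tie1 and Ptprb) summed to between 1257 and 2696 CPM (UMIs of a gene scaled to a fixed total for each population and library) in every endothelial gate and to 2.09 in macrophages. Macrophage markers not used by the gate (Ptprc, Mpeg1, Tyrobp, Ctss and Laptm5) summed to 7929 CPM in the macrophages of the Pdgfra-GFP library. Between 0 and 10 cell barcodes were shared by a pair of libraries.

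The genes lie on 8 chromosomes of the mm10 (GRCm38) build, and all are annotated as protein coding. Stab1 (ENSMUSG00000042286.13) lies on the minus strand at chr14:31139013-31168641, and Stab2 (ENSMUSG00000035459.18) on the minus strand at chr10:86841198-87008025, each with up to 69 exons. Mrc1 (ENSMUSG00000026712.3) lies on the plus strand at chr2:14229392-14332057 and overlaps Mir511. Cd36 (ENSMUSG00000002944.15) lies at chr5:17781690-17888801 and Scarb1 (ENSMUSG00000037936.15) at chr5:125277087-125341094, both on the minus strand. Fcgr2b (ENSMUSG00000026656.15, chr1:170958617-170976547, minus strand) has close relatives among the other Fc receptor genes, so its reads may be split uncertainly. Msr1 (ENSMUSG00000025044.16) lies at chr8:39581685-39642673, Cd163 (ENSMUSG00000008845.9) at chr6:124304656-124330527, Lyve1 (ENSMUSG00000030787.4) at chr7:110850607-110863239 and Marco (ENSMUSG00000026390.7) at chr1:120474538-120505024.

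The sequences just before the start sites of Stab1, Stab2 and Mrc1 are given because these 3 genes followed the same order across the endothelial gates. They were taken from RefSeq promoter windows (GRCm38.p6), which matched 7 of the 10 members, at chr14:31168642-31168891 (minus strand, 250 bases), chr10:87008026-87008192 (minus strand, 167 bases) and chr2:14229164-14229391 (plus strand, 228 bases). Each is written 5′ to 3′ on the strand of the gene, and capitals mark matches to an ETS-type motif (AGGAAG) or a Maf half-site (TGCTGA) on either strand.
Stab1: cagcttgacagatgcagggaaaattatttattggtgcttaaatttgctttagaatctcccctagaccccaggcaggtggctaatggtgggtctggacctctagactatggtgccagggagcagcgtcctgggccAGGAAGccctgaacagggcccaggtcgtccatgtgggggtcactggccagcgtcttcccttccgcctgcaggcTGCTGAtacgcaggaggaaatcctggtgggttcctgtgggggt
Stab2: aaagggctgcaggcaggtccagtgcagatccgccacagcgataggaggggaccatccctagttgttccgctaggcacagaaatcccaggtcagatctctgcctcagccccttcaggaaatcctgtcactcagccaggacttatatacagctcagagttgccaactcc
Mrc1: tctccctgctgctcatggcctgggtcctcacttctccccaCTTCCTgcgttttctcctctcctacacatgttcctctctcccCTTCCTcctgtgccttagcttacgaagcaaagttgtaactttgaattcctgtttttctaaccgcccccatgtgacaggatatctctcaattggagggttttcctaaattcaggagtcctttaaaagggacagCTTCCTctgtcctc

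In the 250 bases before the RefSeq start, the ETS-type motif was found in 4 of the 7 matched members (Stab1, Stab2, Mrc1 and Marco) and in 29.5% of 32851 mouse promoters of that length. The match of Stab2 lies beyond the annotated gene start and is in the part not printed. The windows of Cd36 and Fcgr2b lie wholly inside the annotated spans of these genes, so no match in them is before the annotated start. The Maf half-site was found in Stab1 and Cd36 and in 16.1% of all promoters, and a GATA motif (GATAA) in Cd163 alone of the 7 and in 22.6% of all promoters. The 3 motifs share no overlapping match in these windows, and a match describes letters only.

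Stab2, the stabilin known as a sinusoid marker, was at 774, 776 and 878 CPM in sinusoidal EC of metaphyseal replicate 1, replicate 2 and the Pdgfra-GFP library. In metaphyseal EC it was at 45.5, 36.3 and 23.1. In arterial EC, 1, 0 and 1 UMIs were counted. The 3 gates did not overlap in any pair, and Stab2 in Lepr stroma, the reticular cells that surround sinusoids, reached no more than 2.11 CPM. In near-empty barcodes, which carry free RNA, Stab2 was at 135 and 130 CPM in the metaphyseal libraries and at 5.36 in the Pdgfra-GFP library. The upper share of free RNA, estimated from haemoglobin, was 1.28%, 1.49% and 4.73% of the UMIs in sinusoidal EC and 0.723%, 0.696% and 3.25% in metaphyseal EC.

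Stab1, the broader of the 2 stabilins, was at 809.6, 829 and 572 CPM in sinusoidal EC. It was at 418, 411 and 303 in metaphyseal EC and at 79.9, 93.0 and 29.0 in arterial EC. The 3 gates followed the same order in each library, and the lowest value of each gate was above the highest of the next. Outside endothelium and macrophages its mean was at most 8.15 CPM in any population with at least 10 cells in more than 1 library.

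Mrc1 was at 702, 653 and 462 CPM in sinusoidal EC and at 98.1, 82.9 and 29.4 in metaphyseal EC. Arterial EC held 1, 1 and 0 UMIs of it. Both values of the Pdgfra-GFP library were the lowest of their gate, and the gates did not overlap. The order sinusoidal, then metaphyseal, then arterial was thus shared by Stab1, Stab2 and Mrc1. The 146, 106 and 30 EC with too few or tied subtype markers held 545.7, 677.9 and 191.8 CPM of Stab1. Stab2 was at 177, 257 and 44.3 in them, and Mrc1 at 256, 381.5 and 29.5. In both metaphyseal libraries these values lay above metaphyseal EC for all 3 genes, and 677.9 lay within the sinusoidal range of Stab1. In the Pdgfra-GFP library, with 26, 6 and 4 UMIs, Stab1 lay below metaphyseal EC, Stab2 above and Mrc1 level.

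Cd36 was at 246 and 259 CPM in sinusoidal EC of the metaphyseal libraries and at 522 in the Pdgfra-GFP library. In metaphyseal EC it was at 23.3, 22.0 and 31.5. In arterial EC it was at 16.3 and 10.1 in the metaphyseal libraries and at 179.5 in the Pdgfra-GFP library, so the arterial range spanned that of metaphyseal EC. Erythroid precursors of the Pdgfra-GFP library held it at 42.5 CPM.

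Scarb1, the receptor for high-density lipoprotein, showed no such order. It was at 102, 105.5 and 97.8 CPM in sinusoidal EC, at 79.9, 92.8 and 122 in metaphyseal EC and at 83.5, 93.0 and 113.5 in arterial EC, and the ranges overlapped throughout. Chondrocytes came next with 65.9, 80.5 and 79.9 CPM, below the arterial range and overlapping the metaphyseal one. Metaphyseal stroma (18.0 to 24.0), septoclasts (16.4 to 19.8) and osteoblasts (15.3 to 19.0) overlapped each other, and Lepr stroma, with 8.46 to 13.95, lay below all 3.

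**Figure D1:**
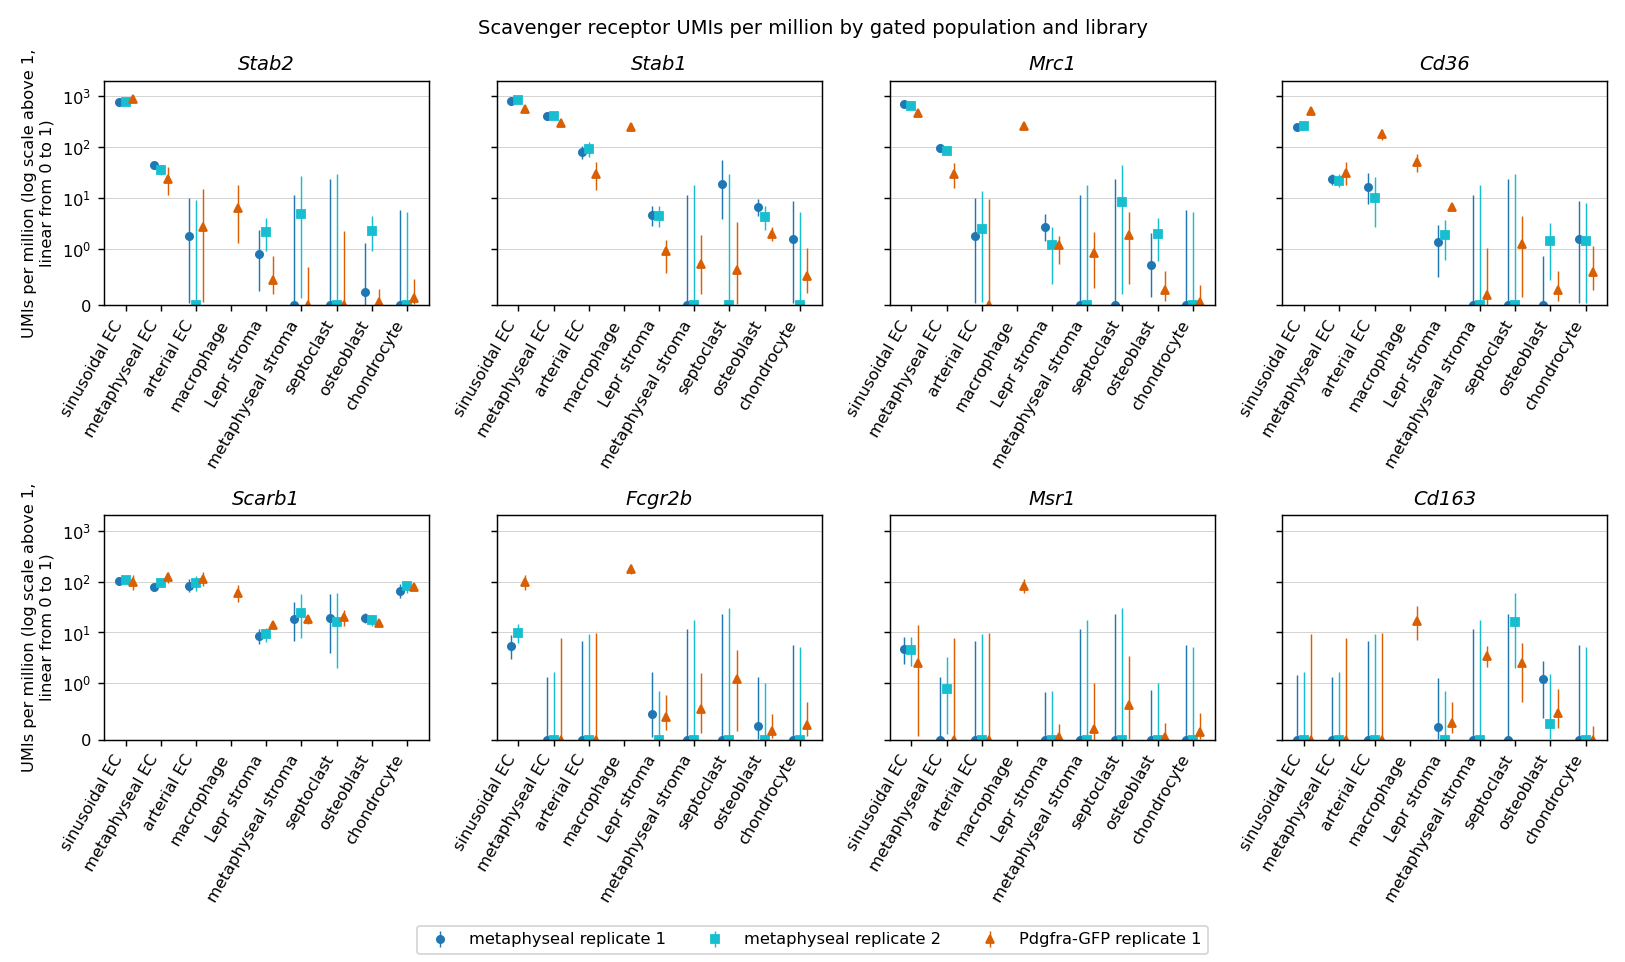
CPM (vertical axis, log scale above 1) of 8 scavenger receptors in 9 gated populations (horizontal axis), with 1 point per library of at least 10 cells and exact 95% Poisson intervals as bars. Stab2, Stab1 and Mrc1 fall from sinusoidal to metaphyseal to arterial EC, Scarb1 stays between 79.9 and 122 in all 3 endothelial gates, and Msr1 is highest in macrophages, at 83.6.

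Fcgr2b, the inhibitory Fc receptor, was the member whose sinusoidal level differed most between libraries. It was at 5.41 and 9.88 CPM in sinusoidal EC of the metaphyseal libraries (14 and 22 UMIs) and at 97.8 in the Pdgfra-GFP library (39 UMIs). No UMI of it was counted in metaphyseal or arterial EC of any library. Among blood cells it was at 32.5 to 45.8 in neutrophil precursors and at 12.0 to 34.9 in B-lineage cells. Macrophage check markers summed to 15.1 CPM in the sinusoidal EC of the Pdgfra-GFP library and to 2.704 and 2.694 in the metaphyseal libraries, against 7929 in macrophages, and their part in the Fcgr2b level was not tested.

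Msr1 was rare in endothelium, with 12, 10 and 1 UMIs in sinusoidal EC, 0, 2 and 0 in metaphyseal EC and 0 in arterial EC. Cd163 had no UMI in any endothelial gate, where 0 UMIs allow at most 1.16 CPM in the sinusoidal EC of metaphyseal replicate 1. Lyve1 had 1 UMI in all sinusoidal EC and 0 in metaphyseal and arterial EC, and 19 of its UMIs were in chondrocytes of the Pdgfra-GFP library, at 1.24 CPM. Neutrophil precursors held 2, 3 and 0 UMIs of Lyve1, at 4.99 and 7.66 CPM in metaphyseal replicates 1 and 2. Marco had 2 UMIs in all populations together, both in Lepr stroma. Lyve1, Cd163 and Marco did not pass the filter on low counts and were not tested.

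The question of the first comparison was which of these receptors separate the sinusoids from the capillaries of the metaphysis, the vessel bed that reaches the growth plate. Sums of UMIs per population and library were compared with edgeR's quasi-likelihood test with the library as a term, and p-values were adjusted by the Benjamini-Hochberg method over 11944 genes. Of the 7 members that passed the filter, 6 were higher in sinusoidal EC at an adjusted p under 0.05 and 0 were lower, while 8.89% of all genes tested were higher. The members were chosen as receptors known from sinusoids and macrophages, so the count describes them and is no test of that choice. The filter was applied to all 40 sums at once, so Fcgr2b and Msr1 were tested although metaphyseal EC held 0 and 2 UMIs of them. Both limits hold for the comparisons below too.

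Stab2 was 17.0, 21.4 and 38.0 times higher in sinusoidal than in metaphyseal EC in metaphyseal replicate 1, replicate 2 and the Pdgfra-GFP library. The fitted difference was 4.58 on the log2 scale (SE 0.30, edgeR adjusted p = 7.38e-13). Cd36 was 10.6, 11.8 and 16.5 times higher, with a log2 difference of 3.62 (SE 0.32, edgeR adjusted p = 1.17e-10). Mrc1 was 7.16, 7.88 and 15.7 times higher, with a log2 difference of 3.20 (SE 0.24, edgeR adjusted p = 1.45e-11). All 3 ratios were largest in the Pdgfra-GFP library, and the calls held without it.

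Stab1 differed least among the called members, at 1.94, 2.02 and 1.89 times, although the 3 ratios were close to each other. Its log2 difference was 1.04 (SE 0.21, edgeR adjusted p = 0.000333), and the call was lost without the library term (adjusted p = 0.166) and after the free RNA expected from near-empty barcodes was subtracted (adjusted p = 0.839), while the log2 difference was 1.03 in both and between 0.96 and 1.09 in the 12 alternatives. Within the metaphyseal libraries alone the log2 difference was 1.03 (adjusted p = 2.33e-10). The share of free RNA subtracted was at most 4.73% in sinusoidal and 3.25% in metaphyseal EC. It was 100% in arterial EC of metaphyseal replicate 2, which belong to the same fit. The cause of the lost call was not tested.

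Fcgr2b had 75 UMIs in sinusoidal and 0 in metaphyseal EC (edgeR adjusted p = 2.25e-06). With a floor of 3 UMIs in place of the 0, over the pooled libraries, the ratio was 26.4. Without the Pdgfra-GFP library, which held 39 of the 75 UMIs, it was 12.515 (edgeR adjusted p = 9.83e-05). Ratios against the floor leave out the counting error of the sinusoidal UMIs, so they are not lower limits. Msr1 had 23 against 2 UMIs, a ratio of 12.1 (95% counting interval 3.00 to 106.1, edgeR adjusted p = 0.00222), and the call was lost without metaphyseal replicate 1 (log2 difference 2.47, adjusted p = 0.152) and by the DESeq2 Wald test (log2 difference 3.41, adjusted p = 0.114). Scarb1 did not pass, with a log2 difference of 0.21 (SE 0.19, edgeR adjusted p = 0.542).

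**Figure D2:**
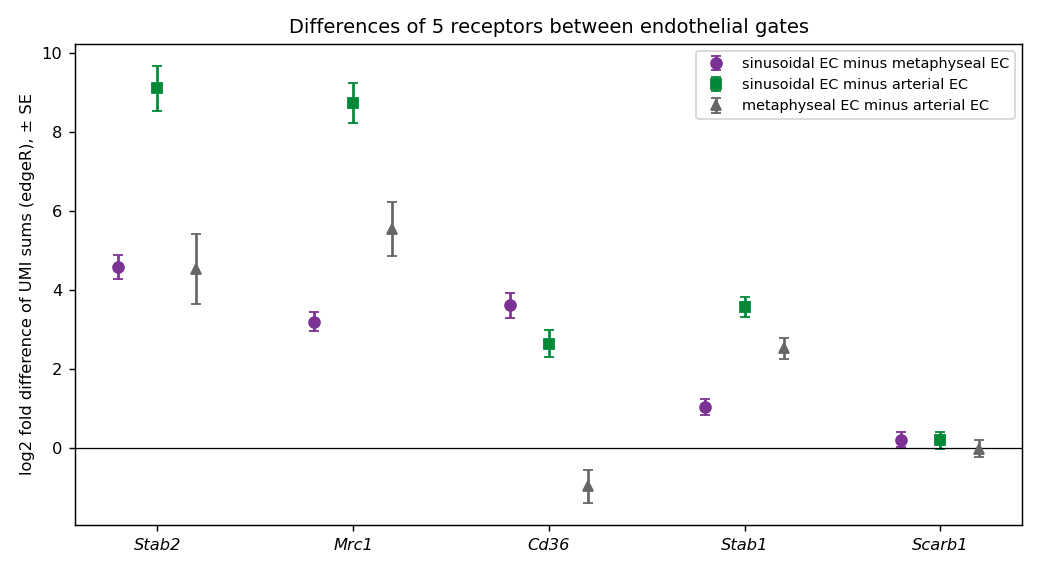
Fitted log2 differences (vertical axis, points with SE as bars) of 5 receptors in 3 comparisons of endothelial gates. Stab2 lies at 4.58, Cd36 at 3.62, Mrc1 at 3.20 and Stab1 at 1.04 for sinusoidal against metaphyseal EC, and all 3 points of Scarb1 lie near 0; the arterial gate held 2 UMIs each of Stab2 and Mrc1, so these fitted values depend on the model's prior.

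Against arterial EC, the vessels that feed both beds, 6 of the 7 tested members were again higher in sinusoidal EC and 0 lower, with 12.0% of all genes higher. Stab1 was 10.1, 8.91 and 19.7 times higher, a log2 difference of 3.56 (SE 0.26, edgeR adjusted p = 3.25e-13). Stab2 had 4082 UMIs against 2, a ratio of 519.6 (95% counting interval 143.8 to 4292, edgeR adjusted p = 5.11e-14). Mrc1 had 3457 against 2, a ratio of 440.1 (95% counting interval 121.7 to 3635, edgeR adjusted p = 1.12e-14).

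Cd36 was 15.1 and 25.7 times higher in sinusoidal than in arterial EC of the metaphyseal libraries and 2.91 times in the Pdgfra-GFP library. Its log2 difference was 2.63 over all libraries (SE 0.34, edgeR adjusted p = 2.35e-07) and 4.21 in the metaphyseal libraries alone (adjusted p = 1.39e-13). Fcgr2b, with 0 arterial UMIs, had a ratio of 6.36 against the same floor (edgeR adjusted p = 0.000247), and of 2.36 without the Pdgfra-GFP library (edgeR adjusted p = 0.04). Msr1 had a ratio of 1.95 against that floor (edgeR adjusted p = 0.0207). Its call was lost in 5 of the alternatives, without either metaphyseal replicate among them (adjusted p = 0.136 and 0.149). Scarb1 again did not pass (log2 difference 0.18, SE 0.22, edgeR adjusted p = 0.640).

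Between metaphyseal and arterial EC, 3 of the 7 tested members were higher in metaphyseal EC and 0 lower, with 6.58% of all genes higher. They were Stab1 at 5.23, 4.42 and 10.4 times (log2 difference 2.52, SE 0.26, edgeR adjusted p = 3.94e-09), Mrc1 with 473 UMIs against 2 (edgeR adjusted p = 2.55e-07) and Stab2 with 219 UMIs against 2 (edgeR adjusted p = 0.000389). The Stab2 call was lost without metaphyseal replicate 1 (log2 difference 4.42, adjusted p = 0.0731). Cd36 had a log2 difference of -0.98 (SE 0.42, edgeR adjusted p = 0.134), made up of 1.42 and 2.19 times as much in metaphyseal as in arterial EC of the metaphyseal libraries and 0.176 times in the Pdgfra-GFP library.

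The arterial gate of the Pdgfra-GFP library also held the reporter transcript, with 195 H2B-GFP UMIs at 514.8 CPM against 3 UMIs in metaphyseal EC, 0 in sinusoidal EC and 64.4 CPM in near-empty barcodes. Of its 68 Cd36 UMIs, 45 were in 4 of the 31 cells with an H2B-GFP UMI and 23 in 9 of the 52 cells without one. This is 297 and 101.3 CPM, both above the 10.1 and 16.3 of the metaphyseal libraries. Neither the part of the reporter-positive cells nor that of the sort in this level was tested.

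A UMI of Stab2 was found in 89.6%, 88.2% and 87.3% of sinusoidal EC, and in 71.6%, 73.6% and 74.0% after every cell was thinned to 2000 UMIs in 1 random draw. In metaphyseal EC the thinned share was 7.97%, 5.25% and 5.75%, and in Lepr stroma, which should lack the gene, it was 0.114% to 0.577%. Median depths were 5616, 6004.5 and 4995 UMIs in sinusoidal EC and 5660.0, 5738 and 3726 in Lepr stroma.

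Thinned shares for Stab1 were 75.0%, 75.6% and 67.5% in sinusoidal, 51.9%, 51.6% and 41.4% in metaphyseal and 19.7%, 13.8% and 2.703% in arterial EC. Mrc1 was found in 69.1%, 65.4% and 55.8% of sinusoidal EC, and Cd36 in 36.7%, 36.2% and 55.8%. In this draw Scarb1 lay between 17.1% and 19.8% in the 3 gates. Fcgr2b was found in 0.901%, 0.843% and 18.2% of sinusoidal EC, the highest in the Pdgfra-GFP library. Unthinned, the shares in sinusoidal EC were 94.6%, 97.5% and 87.3% for Stab1, 90.1%, 88.8% and 78.5% for Mrc1, 64.0%, 60.7% and 77.2% for Cd36 and 2.703%, 4.21% and 30.4% for Fcgr2b.

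**Figure D3:**
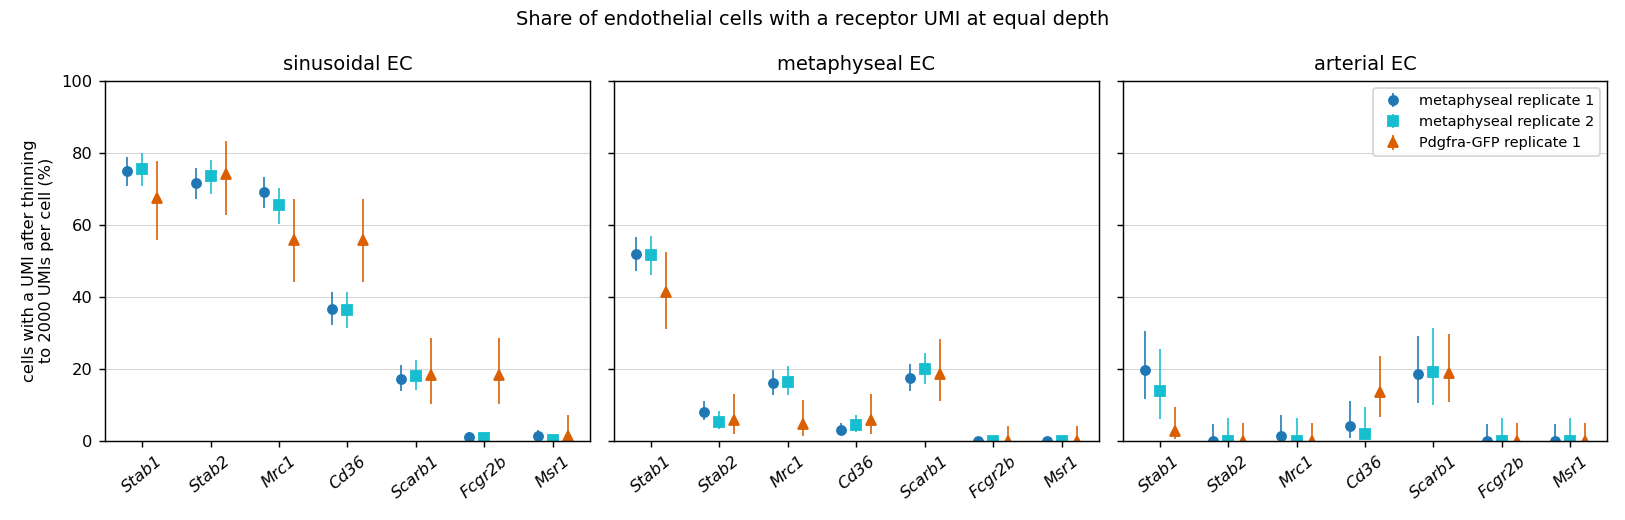
Share of cells with a UMI (vertical axis, percent) of 7 receptors after thinning to 2000 UMIs per cell in 1 random draw, in sinusoidal, metaphyseal and arterial EC, with 1 point per library and exact 95% binomial intervals, which cover counting error only. Stab1, Stab2 and Mrc1 are found in 55.8% to 75.6% of sinusoidal EC, and Scarb1 in 17.1% to 19.8% of every gate, in this draw.

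The receptors also varied within endothelium as a whole when cells were ordered by how many of the 5 sinusoidal gate markers (Flt4, Gpr182, Adamts5, Vcam1 and Dnase1l3) they held. Stab2 was at 5.90, 19.7 and 7.43 CPM in EC with 0 markers and at 836, 824 and 920.0 in EC with 4 or 5. With 2 markers it was still at 93.4, 92.5 and 92.1, so most of the step lay above that. Stab1 was spread more evenly, at 215, 246 and 104 with 0 markers, 463, 483 and 271 with 2 and 858, 843 and 622 with 4 or 5. Mrc1 was at 30.7, 59.1 and 7.43 with 0 markers and at 740.2, 705 and 514 with 4 or 5. Scarb1 stayed between 77.9 and 121 across all bins.

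**Figure D4:**
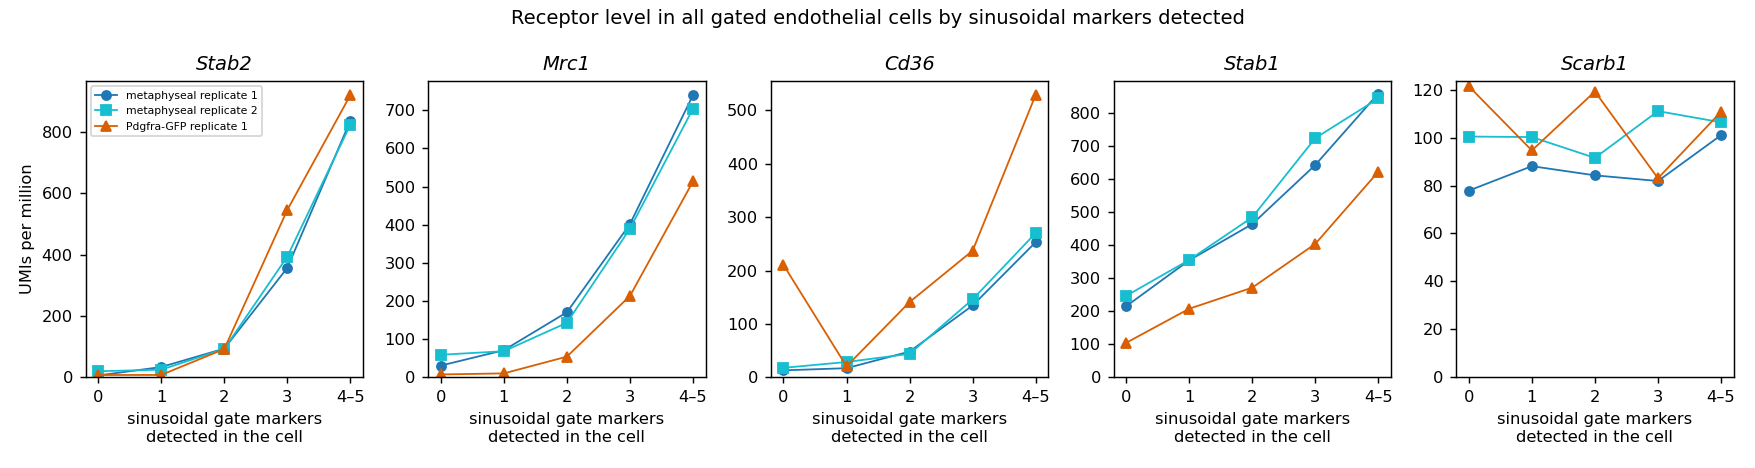
CPM (vertical axis) of 5 receptors in all gated EC by the number of sinusoidal gate markers detected in the cell (horizontal axis), 1 line per library. Stab2 is at 92.1 to 93.4 at 2 markers and at 824 to 920.0 at 4 or 5, Stab1 climbs more evenly, and Cd36 of the Pdgfra-GFP library is also high, at 211, in EC with 0 markers.

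This order is a description, and depth differed between the bins: the median ran from 3424 to 5263 UMIs in the Pdgfra-GFP library, from 5493 to 6107 in metaphyseal replicate 1 and from 5740 to 6368 in metaphyseal replicate 2. The bin with 3 markers held 14 cells in the Pdgfra-GFP library. Counts of receptors per cell came from a second random draw to 2000 UMIs, in which shares of single genes differ from the first (Stab1 in 319 of 444, 279 of 356 and 50 of 77 sinusoidal EC). In it, 123 of 444, 116 of 356 and 25 of 77 sinusoidal EC held exactly 3 of the 10 receptors, the most frequent number in each library, and 24, 15 and 2 cells held none. Of the sinusoidal EC with a Stab2 UMI, 73.4%, 70.2% and 59.6% also held Mrc1, against 48.5%, 47.7% and 56.0% of those without.

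Macrophages could be described in the Pdgfra-GFP library only, as 74 cells with a median of 6076.5 UMIs, and no test across libraries was possible. Both preparations select against them, by CD45 depletion or by the sort. The H2B-GFP transcript had 2 UMIs in these cells. Their receptors were of a different make-up from the sinusoids of the same library: Msr1, which binds modified lipoproteins, was at 83.6 CPM (95% Poisson interval 59.7 to 113.8) against 2.51 (0.0635 to 14.0) in sinusoidal EC. Cd163 was at 16.7 (7.22 to 32.9), with 8 UMIs, against 0 UMIs (0 to 9.25). Fcgr2b was at 179.7 (143.8 to 222) against 97.8 (69.6 to 133.8).

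The stabilins and Mrc1 lay on the other side. Stab2 had 3 UMIs in macrophages, at 6.27 CPM (1.29 to 18.3), against 878 in sinusoidal EC. Stab1, a stabilin known from macrophages too, was at 247 (204 to 295) against 572 (500.2 to 651), and Mrc1 at 261 (217 to 311) against 462 (397 to 533). Cd36 was at 50.2 (32.1 to 74.6) against 522. Scarb1 was at 58.5 (38.9 to 84.6) against 97.8 (69.6 to 133.8), so their intervals overlapped. Lyve1 and Marco had 0 UMIs in the macrophages. The upper limit of free RNA in these cells, estimated from haemoglobin, was 3.76% of UMIs.

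**Figure D5:**
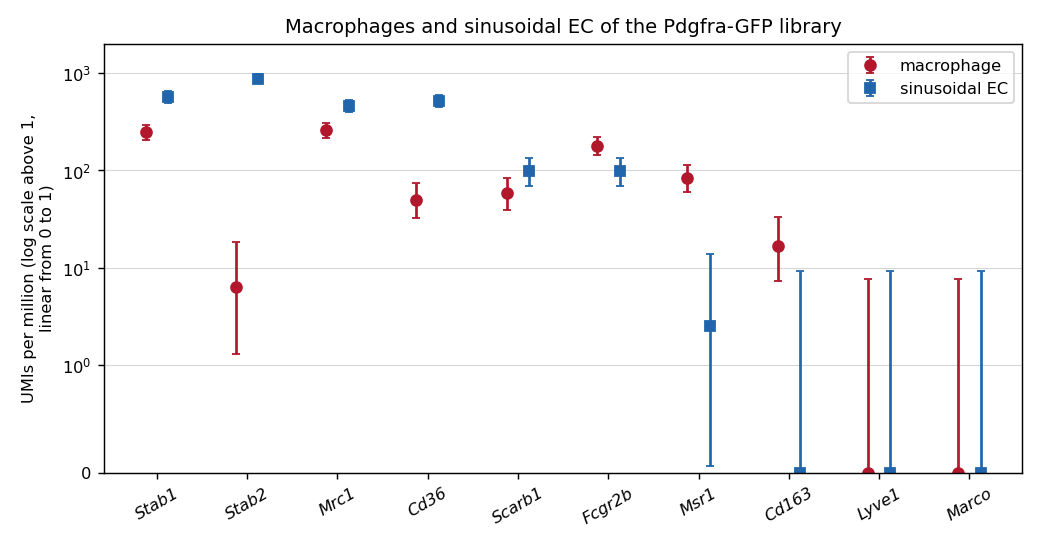
CPM (vertical axis, log scale above 1) of all 10 receptors in the 74 macrophages and 79 sinusoidal EC of the Pdgfra-GFP library, with exact 95% Poisson intervals that cover counting error only. The intervals of Msr1 and Fcgr2b in macrophages lie above those in sinusoidal EC, those of Cd163 and Scarb1 overlap, and Stab2 is at 6.27 against 878.

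In the second draw, 20 of 73 macrophages held none of the 10 receptors, 27 held exactly 1 and 3 held 4, the highest number. Mrc1 was found in 23 of these cells, Fcgr2b in 22 and Stab1 in 20. In the first draw, a UMI of Mrc1 was found in 39.7%, of Fcgr2b in 38.4%, of Stab1 in 30.1%, of Msr1 in 10.96% and of Cd163 in 4.11% of 73 thinned cells, against 56.8%, 60.8%, 52.7%, 29.7% and 6.76% unthinned. The 3 macrophages of metaphyseal replicate 2 held 14 UMIs of Mrc1, 8 of Stab1, 5 of Fcgr2b and 1 of Msr1.

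Stroma held little of the 10 receptors of the set. Against Lepr stroma all 7 tested members were higher in sinusoidal EC, with 26.2% of all genes higher. The log2 difference ran from 3.34 for Scarb1 (SE 0.20, edgeR adjusted p = 2.15e-16) through 6.73 for Cd36 (SE 0.36, edgeR adjusted p = 1.63e-17) to 9.79 for Stab2 (SE 0.40, edgeR adjusted p = 7.39e-20).

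Within stroma, 1 of 7 members was higher in Lepr stroma than in metaphyseal stroma, the cells near the growth plate. This is close to the 14.0% of all genes that were higher, so the count is no trait of the set. Stab1, Stab2, Mrc1, Msr1 and Fcgr2b had at most 5 UMIs each in metaphyseal stroma, so the comparison could decide little on them. The member called was Cd36, at 1.37, 1.88 and 6.60 CPM against 0, 0 and 0.184, that is 144 UMIs against 1 and a ratio of 30.3 (95% counting interval 5.35 to 1205, edgeR adjusted p = 0.00302). The call was lost without the Pdgfra-GFP library (log2 difference 4.001, adjusted p = 0.541) and without the library term (log2 difference 4.06, adjusted p = 0.0846), against 4.58 with all libraries and the term. Scarb1 was at 8.46, 9.16 and 13.95 in Lepr stroma and at 18.6, 24.0 and 18.0 in metaphyseal stroma, with no overlap, and did not pass (log2 difference -0.70, SE 0.27, edgeR adjusted p = 0.051). The values in metaphyseal stroma rest on 6, 5 and 98 UMIs. Scarb1 passed, lower in Lepr stroma, in 3 of 12 alternatives.

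Between septoclasts, which resorb cartilage at its border with bone, and metaphyseal stroma, 0 of the 7 members passed an adjusted p of 0.05 by edgeR, while 4.43% of all genes were higher. The filter on low counts was applied to all 40 sums at once, so it did not ask for counts in either population. Scarb1 was at 19.1, 16.4 and 19.8 CPM in septoclasts (log2 difference 0.07, SE 0.37, edgeR adjusted p = 0.983). The other members had at most 6 UMIs each in all septoclasts, too few for this comparison to decide on them. Cd163 was among these, with 0, 2 and 4 UMIs in septoclasts and 0, 0 and 19 in metaphyseal stroma, the latter at 3.50 CPM.

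Other genes of the uptake pathway came from lists of receptors, Fc receptors and endocytic machinery. Of 20 other scavenger and endocytic receptors, 16 were tested and 3 were higher in sinusoidal than in metaphyseal EC (8.89% of all genes were), with 0 lower and a median log2 difference of 0.34 against 0.02 over all genes. They were Cxcl16, a membrane chemokine that binds oxidised lipids (18.3 ± 6.50 against 5.12 ± 1.14 CPM, SD, n = 3; edgeR adjusted p = 0.000124), the lysosomal receptor Scarb2 (90.3 ± 17.3 against 48.9 ± 15.1, edgeR adjusted p = 0.000584) and the Wnt coreceptor Lrp6 (56.6 ± 28.1 against 35.0 ± 19.4, edgeR adjusted p = 0.0145).

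Of 12 endocytosis and lysosome genes, all tested, 6 were higher (8.89% of all genes were) and 1 was lower, with a median log2 difference of 0.52 against 0.02 over all genes. The lysosomal protease gene Ctsl was at 2653.5 ± 926 CPM in sinusoidal against 433 ± 29.6 in metaphyseal EC (SD, n = 3; log2 difference 2.64, SE 0.22, edgeR adjusted p = 1.45e-11). The endocytic recycling gene Ehd3 was at 71.0 ± 8.89 against 24.9 ± 13.0 (edgeR adjusted p = 1.63e-07), and Lgmn, which encodes the protease legumain, at 1019.6 ± 77.5 against 398 ± 37.7 (edgeR adjusted p = 1.27e-05). Dab2, Cltc and Ctsb were the other 3, and Ehd4 was the lower gene.

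Among 5 Fc receptors other than Fcgr2b, the neonatal receptor gene Fcgrt was higher in sinusoidal EC (1029.5 ± 37.7 against 625 ± 34.6 CPM, edgeR adjusted p = 0.00857), and Fcer1g, the common signalling chain, was lower (279 ± 5.18 against 579 ± 57.6, edgeR adjusted p = 0.000516). Fcgr1 and Fcgr4 were at 0 CPM in both gates, so their tests could decide nothing. Fcgr3, at 0.407 ± 0.388 against 1.82 ± 2.05 CPM, did not pass. In the Pdgfra-GFP library Fcgr1, Fcgr3 and Fcgr4 had 100, 268 and 17 UMIs in macrophages and were at 0 in sinusoidal EC, where Fcgr2b had 39.

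Against arterial EC, 4 of the 16 receptors were higher in sinusoidal EC and 0 lower (Cd14, Colec12, Scarb2 and Scarf1), and 8 of the 12 endocytosis and lysosome genes were higher and 1 lower, while 12.0% of all genes were higher. The median log2 differences were 0.68 and 1.13, against 0.10 over all genes. Cd14 was higher in only 2 of the 3 libraries and had 5 UMIs in arterial EC (edgeR adjusted p = 0.0494). Ctsl had a log2 difference of 2.46 (SE 0.22, edgeR adjusted p = 3.61e-11), Ehd3 of 2.52 (SE 0.33, edgeR adjusted p = 2.46e-07) and Ehd4 of -3.07 (SE 0.29, edgeR adjusted p = 1.21e-10). In macrophages the receptors of the list that led were Cd68 with 400 UMIs, at 836 CPM, Cd14 with 248 and Cxcl16 with 229, while Scarf1 had 1 UMI there and was at 145.5 CPM in sinusoidal EC of that library. Against Lepr stroma, 3 of the 16 receptors were higher in sinusoidal EC (26.2% of all genes were) and 8 were lower. The share of all genes that were lower is not given here, so the count of 8 is not read as a trait of the list. The median log2 difference of the 16 was -2.46, against -0.002 over all genes. The 8 were led by Pla2r1, Lrp1 and Mrc2, with Lrp1 at 2.66 ± 4.22 against 274 ± 45.9 CPM (SD, n = 3). Of the 12 endocytosis and lysosome genes, 8 were higher there and 1 lower.

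The genes most like each member were ranked by Pearson's r of log2(CPM + 1) across the 40 sums of populations and libraries. Only tested genes were ranked, and all members and gate markers were left out, so none of these can appear as a neighbour. The nearest of the remaining genes were Gm6213 (0.956), Il13ra2 (0.936) and Sele (0.930) for Stab2, and Rbfox3 (0.927), Fam167b (0.926) and Ctla2a (0.913) for Stab1. For Mrc1 they were Gm11707 (0.913), Abcc3 (0.892) and Gm6213 (0.881), and for Cd36 Lbx2 (0.869), St6galnac3 (0.859) and Fam167b (0.856). Scarb1 had weaker neighbours, which were Pitpnc1 (0.818), Kank3 (0.776) and Tmem88 (0.771). Msr1 was nearest to Trem2 (0.839), Bcl2a1b (0.830) and Bcl2a1a (0.824), and Fcgr2b to Nfkbid (0.886), Ctss (0.845) and Susd3 (0.838). Cd163, with 55 UMIs in all, was nearest to Cryba4 (0.843), then Clec10a (0.649) and Gdf15 (0.640). The sums share libraries and differ in depth, so these values describe the tables and carry no test.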

How the data were processed

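Cells from long bones of 3-week-old mice were profiled by droplet RNA-seq (10x 3′ chemistry). The authors trimmed reads with fastp 0.20, aligned and counted them with STARsolo (STAR 2.7.3a) on mm10 with Gencode M23 and the H2B-GFP sequence, and deposited raw UMI counts for the whole barcode list, per the labels and methods. Here, cells with at least 1500 genes (metaphyseal) or 1000 (Pdgfra-GFP), at most 15% mitochondrial and 30% ribosomal UMIs were kept, and gates asked for 3 markers of a class and 2 of an endothelial subtype. Cells passing gates of 2 lineages were left out (101, 94 and 339), and Scrublet called 1.05%, 0.599% and 1.45% of cells as doublets. UMI sums of populations with at least 10 cells were tested with edgeR 4.0.16 (TMM, filterByExpr, terms for population and library, R 4.3.3) on 40 sums. Populations of a library came from 1 suspension and deviated together in each pair checked (r 0.196 to 0.447), so the library entered as a block. DESeq2 1.42.0, other filters, gates and left-out libraries were the alternatives. Comparisons of macrophages, planned as tests, could not be tested, since 1 library held at least 10. On simulated data for sinusoidal against metaphyseal EC, 199 of 200 genes changed 4-fold and 8 of the unchanged among 11381 genes were called. Intervals and floors (3 UMIs) cover counting error only. Positions come from Gencode M21. The named genes were all 10 members and genes of the lists, mainly the largest changes past the threshold. Named too were the 3 genes most like each member with at least 50 UMIs. The last were ranked among tested genes that were neither members nor gate markers. The members, lists and tests were chosen with earlier results of these data known. Free RNA was bounded by haemoglobin UMIs relative to near-empty barcodes (at most 50 UMIs), and where a sum held more haemoglobin than those, as arterial EC of metaphyseal replicate 2, the share was set to 100%.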

Additional observations from a re-analysis of the deposited data

Results flagged for a closer look

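Differences between 2 endothelial gates had opposite signs in the Pdgfra-GFP library and in both metaphyseal libraries for 2 receptors, on the log2(CPM + 1) scale. These contrasts of directions were not tested, and genotype, sort, library and possibly the dissected region cannot be told apart in them. Cd36 in metaphyseal minus arterial EC was at -2.472 in the Pdgfra-GFP library and at 0.486 and 1.055 in metaphyseal replicates 1 and 2. Scarb1 in sinusoidal minus metaphyseal EC was at -0.315 in the Pdgfra-GFP library and at 0.354 and 0.183 in the metaphyseal replicates. Scarb1 in sinusoidal minus arterial EC was at -0.212, against 0.291 and 0.181. Scarb1 in metaphyseal minus arterial EC was at 0.103, against -0.063 and -0.003. Neither the Scarb1 differences in the 3 comparisons nor the Cd36 difference passed with all libraries. The arterial gate of the Cd36 difference also held H2B-GFP UMIs. Its cells without such a UMI also held more Cd36 than arterial EC of the metaphyseal libraries, and the part of the reporter was not tested.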

How the results depend on the processing

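Over 33 results of a member in a comparison and 391 alternative values, 360 kept their direction and their side of the threshold, 12 lost the call, 4 gained it and 15 changed sign, all 15 in results that had not passed. Populations of a library shared a suspension. Without the replicate block (no library term), Stab1 in sinusoidal minus metaphyseal EC (log2 difference 1.03, adjusted p = 0.166) and Cd36 in Lepr minus metaphyseal stroma (4.06, adjusted p = 0.0846) lost their calls, so that 0 members passed in the latter comparison. Over the alternatives their log2 differences ran from 0.96 to 1.09 and from 3.03 to 6.71. The genes called, in the order of the report, were 1852, 2562, 1575, 6079, 3087 and 883, and without the block 874, 1622 and 858 in the endothelial comparisons, 1794 in Lepr minus metaphyseal stroma and 336 in septoclasts. With free RNA subtracted they were 547, 1126, 574, 3504, 1328 and 333. Leaving out 1 library gave 688 to 2604, 1324 to 2647, 699 to 1784, 4243 to 6265, 1859 to 2164 and 354 to 494, with the metaphyseal replicates giving the lowest values except in septoclasts, where it was the Pdgfra-GFP library. The cause was not tested.

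Members called in Lepr minus metaphyseal stroma were 2 instead of 1 with DESeq2 size factors, without a filter on low counts, with at least 500 genes, without Scrublet doublets and with at least 20 cells, and 0 to 1 when a library was left out. The added member was Scarb1, lower in Lepr stroma, with DESeq2 size factors, with at least 500 genes and without Scrublet doublets. Without a filter on low counts and with at least 20 cells it was not Scarb1, and it is not named here. Scarb1 in metaphyseal minus arterial EC turned from -0.02 to 0.0422 without the filter, to 0.0407 with at least 500 genes, to 0.0440 with at least 20 cells, to 0.0516 with 1 more gate marker and to between -0.0528 and 0.0403 when a library was left out. Cd36 there lay between -1.54 and 0.70 when a library was left out, the latter without the Pdgfra-GFP library, and passed at -0.93 without the filter (adjusted p = 0.024). In Lepr minus metaphyseal stroma, subtraction of free RNA turned Stab1 to -2.11, Stab2 to -2.33 and Mrc1 to -0.94. There, leaving out a library gave -0.44 to 3.45 for Stab2 and -0.46 to 1.65 for Fcgr2b, whose signs turned without the Pdgfra-GFP library. Scarb1 in septoclasts lay between -0.38 and 0.0794 when a library was left out, the former without that library, and turned to -0.0705 without Scrublet doublets and to -0.24 with free RNA subtracted.

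The comparison of septoclasts gave no value with 1 more gate marker or at least 20 cells, and those of macrophages could not be tested. Lyve1, Marco and Cd163 had too few UMIs to be tested, and 3 libraries limit all p-values. The ratios of Fcgr2b against the floor without a library were added after seeing the data: 12.515 to 20.956 against metaphyseal and 2.36 to 6.01 against arterial EC.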
